A study of Homo sapiens with 12 samples.

Results

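The 10 Frizzled receptor genes, FZD1 to FZD10, were followed across 12 RNA sequencing libraries of HEK293T cells. HEK293T cells descend from human embryonic kidney and express the large T antigen of SV40. The members were defined by name as the whole Frizzled family, and all 10 symbols were found among the 58735 genes of the count tables. No measured value decided which genes belong, but the family was chosen for its levels in these cells and its change in both comparisons, with earlier results known, so those values are given as a description and nothing is read from how many members passed a test. In 1 experiment cells received 500 ng of plasmid, either for miR-211 or a control, and in the other a Dicer-substrate siRNA (1 nM) to U1, the small nuclear RNA that recognises the start of introns, or a scrambled oligo of unstated dose. RNA was taken 24 h later. The titles of the siRNA and scrambled oligo libraries also carry WT, which the plasmid titles lack and the labels do not explain. Each of the 4 groups had 3 libraries. Plasmid uptake was gauged by GFP and stated only as a minimum, so a plasmid library mixes transfected and other cells, and nothing says that replicates came from separate cultures.

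Frizzled proteins are 7-pass membrane receptors that bind Wnt ligands through a cysteine-rich domain outside the cell. With the co-receptors LRP5 and LRP6 they pass the signal through Dishevelled and stabilise beta-catenin, and with other partners they act in planar cell polarity, the alignment of cells within a sheet. The ubiquitin ligases ZNRF3 and RNF43 remove them from the cell surface, and R-spondins acting through LGR receptors oppose that removal. By sequence the family falls into the groups FZD1, FZD2 and FZD7, then FZD5 and FZD8, then FZD4, FZD9 and FZD10, and last FZD3 and FZD6. FZD4 is also the receptor for Norrin, a ligand of retinal vessel growth, together with TSPAN12.

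Gene models were taken from GENCODE 29 on GRCh38. FZD1 (ENSG00000157240) lies at chr7:91264364-91271326, FZD2 (ENSG00000180340) at chr17:44557459-44559570 and FZD7 (ENSG00000155760) at chr2:202034587-202038445, all on the plus strand. FZD5 (ENSG00000163251) lies at chr2:207762586-207769563 and FZD8 (ENSG00000177283) at chr10:35638249-35642278, both on the minus strand. FZD4 (ENSG00000174804) lies at chr11:86945679-86955391 on the minus strand, FZD9 (ENSG00000188763) at chr7:73433783-73436120 and FZD10 (ENSG00000111432) at chr12:130162459-130165740 on the plus strand. FZD3 (ENSG00000104290) lies at chr8:28494205-28574268 and FZD6 (ENSG00000164930) at chr8:103298433-103332866, both on the plus strand. Of the 10 genes, 6 have a single exon and 4 have introns, the latter being FZD3 and FZD6 with 8 exons each and FZD4 and FZD5 with 2. These 4 genes with introns were among the 5 members with the highest levels in these cells, beside the intronless FZD7.

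The microRNA delivered by the plasmid is shown with its seed, bases 2 to 8, in capitals, because matches to that seed mark the members that it could pair with. The sequence is credited to RefSeq (GRCh38.p14).

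hsa-miR-211-5p: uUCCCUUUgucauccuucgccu

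In the 3 prime UTRs of FZD1 and FZD4 there is 1 match each to bases 2 to 8 followed by A, called an 8mer and shown in capitals. The FZD1 site lies at chr7:91268332-91268357 on the plus strand and the FZD4 site at chr11:86949913-86949938 on the minus strand (GENCODE 29, GRCh38).

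FZD1 site: gcatgcatgctAAAGGGAAaatgtgt

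FZD4 site: ttcagttttatAAAGGGAActgagga

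Shorter matches of 7 bases stood in FZD1 (1), FZD4 (2), FZD3 (1 in a 3 prime UTR of 11256 bases), FZD5 (1) and FZD10 (1). No match of either kind was found in the 3 prime UTRs of FZD2, FZD6, FZD7, FZD8 and FZD9, the longest of which has 2073 bases. Among 10933 genes tested that had an annotated 3 prime UTR, 9.72% held an 8mer and a further 20.4% held 7-base matches only. A match is a description of the sequence and not evidence that the microRNA binds there.

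Library totals ran from 4515728 to 9290686 counts. The neurofilament gene NEFL, long known in HEK293 cells, had 86.4 ± 9.61 CPM (SD over 12 libraries). CPM is a gene's count scaled to a common total over all genes. Of the marker genes listed for HEK293T, 5 of 7 reached 1 CPM, while INA (0.283 CPM) and PAX2 (0.205 CPM) did not. The fibroblast list summed to 3.00 to 7.48 CPM apart from U1 siRNA replicate 2, which had 17.1 CPM, and blood cell markers to 1.23 to 2.61 CPM apart from 5.76 CPM in the same library. U1 siRNA replicate 2 also had 44.5% of its uniquely mapped pairs outside annotated exons, against 14.5% to 25.5% in the other 11 libraries, so U1 siRNA fold changes and counts that it moved are given with and without it. MIR211 had 1646 to 1997 counts in the miR-211 libraries and 1 to 9 in all others. The target of the siRNA was not lower beyond overlap: 15 U1 genes together had 18.9, 14.0 and 17.1 CPM in U1 siRNA replicates 1, 2 and 3 and 19.4, 19.3 and 16.5 CPM with scrambled oligo. U1 copies are near-identical and only uniquely mapped pairs were counted, so these counts are a weak check of the knockdown, and U1 siRNA names the label of the libraries throughout.

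By level per length of exon, HEK293T cells carried mainly FZD6 and FZD5 RNA. To compare genes, levels were divided by the length of merged exons and are given as CPM per kb, with the SD over 12 libraries. FZD6 stood at 8.82 ± 1.12 CPM per kb, FZD5 at 4.80 ± 0.395 and FZD3 at 1.62 ± 0.196, then FZD7 at 1.11 ± 0.224 and FZD4 at 0.768 ± 0.219. FZD6 alone made up 49.7% of the summed family level per kb, and FZD5 a further 27.1%. These shares rest on annotated exon lengths, and use of the full lengths in these cells was not checked. Before division by length, FZD6, FZD5 and FZD3 had means of 35.9, 32.2 and 22.4 CPM. Among 19951 protein-coding genes, FZD6 lay above 82.6% and FZD5 above 76.2% by mean CPM per kb. Per kb, the order FZD6, FZD5, FZD3 held within each of the 12 libraries, as did FZD3 above FZD7, while FZD7 exceeded FZD4 in 10 of 12. In CPM without length, FZD5 slightly exceeded FZD6 in U1 siRNA replicate 1 (30.1 against 30.0) and replicate 2 (32.8 against 32.6).

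**Figure D1:**
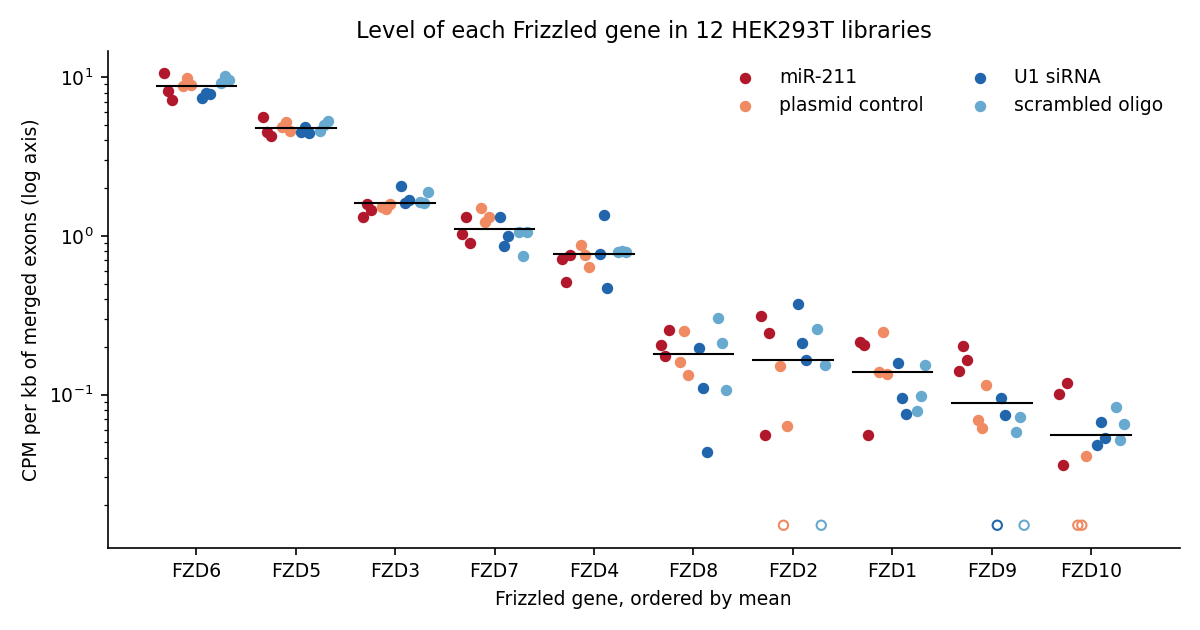
Level of each Frizzled gene as CPM per kb of merged exons (log axis) in 12 libraries, coloured by group, with a line at the mean of all libraries; open circles at the bottom mark libraries with a count of 0. FZD6 and FZD5 lie highest in all libraries, and the 5 genes on the right have means below 0.2 CPM per kb.

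The other 5 members were close to the limit of detection. FZD8 had a mean of 0.179 ± 0.0736 CPM per kb, FZD2 0.166 ± 0.120, FZD1 0.138 ± 0.0607, FZD9 0.0878 ± 0.0607 and FZD10 0.0553 ± 0.0354. The neighbours FZD8, FZD2 and FZD1 did not differ beyond their spread: FZD8 exceeded FZD2 in 7 of 12 libraries and FZD2 exceeded FZD1 in 7 of 12. Over the 12 libraries together these genes had 60 counts for FZD8, 28 for FZD2, 80 for FZD1, 17 for FZD9 and 15 for FZD10. A count of 0 stood in 2 libraries each for FZD2, FZD9 and FZD10, and allows up to 3 counts, or 0.323 to 0.508 CPM in the libraries concerned. At this depth it cannot be said whether such genes are off or expressed in few cells, and fewer expressing cells and less RNA per cell cannot be told apart for any member.

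Within subfamilies 1 member carried most of the RNA. Of FZD1, FZD2 and FZD7, which share ligands and act redundantly in several tissues, FZD7 had the highest level in each of the 12 libraries. FZD5 was likewise above its close relative FZD8 throughout, and FZD4 above FZD9 and FZD10. FZD3 and FZD6, both linked to planar cell polarity and axon or hair orientation, were the only subfamily with no member near the detection limit.

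RefSeq promoter sequences (GRCh38.p14, 250 bases before to 50 after the start) were at hand for 5 members, FZD1, FZD4, FZD5, FZD8 and FZD9. Their GC content was 65.7% to 79.7%, against a median of 58.7% over 35116 promoters of this length, and they held 25 to 40 CpG dinucleotides against a median of 14. Matches were counted on both strands, overlapping ones included, for 4 motifs. The GC box GGGCGG, bound by SP1, was present in all 5 (1 to 6 matches) and in 45.0% of all promoters. The box CCAAT, bound by NF-Y, was present in 4 of 5 and in 34.6% of all. The TATA box TATAAA was present in FZD8 alone and in 11.5% of all. The core of the TCF/LEF site, ATCAAAG, was present in none and in 2.6% of all. The promoters of FZD5, among the highest members in level, and FZD9, among the lowest, are shown with matches in capitals. FZD5 lies at chr2:207769857-207770156 on the minus strand and FZD9 at chr7:73433528-73433827 on the plus strand.

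FZD5 promoter: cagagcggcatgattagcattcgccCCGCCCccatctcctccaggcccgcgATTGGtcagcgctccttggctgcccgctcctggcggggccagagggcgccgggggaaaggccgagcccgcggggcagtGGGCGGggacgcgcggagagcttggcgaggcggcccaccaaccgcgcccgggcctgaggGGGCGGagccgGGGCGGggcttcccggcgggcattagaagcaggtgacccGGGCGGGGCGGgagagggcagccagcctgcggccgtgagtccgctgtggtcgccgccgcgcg

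FZD9 promoter: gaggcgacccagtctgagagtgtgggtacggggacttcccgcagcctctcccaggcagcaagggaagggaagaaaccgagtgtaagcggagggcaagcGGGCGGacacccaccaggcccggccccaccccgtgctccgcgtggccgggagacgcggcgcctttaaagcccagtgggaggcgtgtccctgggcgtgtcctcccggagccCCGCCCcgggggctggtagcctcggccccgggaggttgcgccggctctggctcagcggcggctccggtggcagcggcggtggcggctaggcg

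Both are rich in CpG: 38 dinucleotides in FZD5 and 31 in FZD9, though their levels were 4.80 and 0.0878 CPM per kb. FZD5 has 6 GC boxes and 1 CCAAT box and FZD9 has 2 GC boxes and no CCAAT box. These letters were not linked to the levels by any test.

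Within a group the spread of the abundant members was in most cases near counting error. FZD6 had a coefficient of variation of 4.38% with U1 siRNA, 4.91% with scrambled oligo and 6.93% with control plasmid, where counting alone gives 5.93% to 7.67%. In the miR-211 group it was 20.3%, with counting error at 6.32%. FZD5 likewise had 14.7% in the miR-211 group and 5.11% to 7.04% in the others. FZD4 varied by 51.7% in the U1 siRNA group, against 17.4% from counting, and FZD3 by 13.4% there, against 8.60%.

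FZD5 and FZD6 varied together across libraries. Over the 12 libraries, which fall in 4 treatment groups and include these genes' changes between groups, Pearson's r of log2(CPM + 0.5) was 0.841 and Spearman's rho 0.867. Without the 2 libraries farthest from the FZD5 median, r was 0.777. Among 7427 genes with a mean of at least 10 CPM, FZD6 ranked in the 3 genes most like FZD5, after ZNF232 (r 0.892, rho 0.832) and RPP14 (r 0.843, rho 0.713), and the median gene had r 0.0706. The 3 genes most like FZD6 were DYNC1I2, a dynein intermediate chain (r 0.881, rho 0.860), DTL, a ubiquitin ligase adaptor (r 0.876, rho 0.846), and PPP2R1B, a phosphatase subunit (r 0.875, rho 0.874). Among the other pairs of the 6 members tested in either comparison, r lay between -0.361 (FZD3 with FZD6) and 0.590 (FZD1 with FZD5). Library total had r 0.0634 with FZD6 and -0.0987 with FZD5. The share of pairs outside exons had r -0.115 with FZD6 and 0.228 with FZD5, and without the 2 libraries of most extreme share 0.433 and 0.668.

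**Figure D2:**
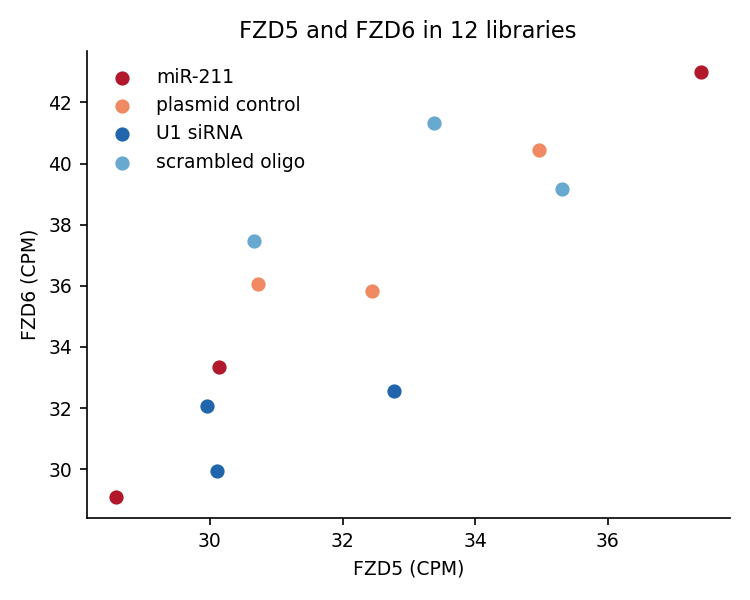
FZD6 against FZD5 in CPM, 1 point per library, coloured by group. Both were highest in miR-211 replicate 1 (FZD5 37.4 and FZD6 43.0 CPM) and lowest in miR-211 replicate 3 (28.6 and 29.1 CPM); the 3 U1 siRNA points lie below the 3 scrambled oligo points on the FZD6 axis.

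With the miR-211 plasmid, no Frizzled gene passed the test. The members that passed the filter on low counts numbered 6 of 10 (FZD1, FZD3, FZD4, FZD5, FZD6 and FZD7), 0 of 6 were called by edgeR's quasi-likelihood test at a Benjamini-Hochberg adjusted p under 0.05, and 0.00788% of all 12685 genes tested were called, MIR211 alone. At an unadjusted p under 0.05 there were 0 of the 6 members and 417 of all genes. This fit did not include replicate numbers as pairs. With those numbers as a block in edgeR, more of all genes had an unadjusted p under 0.05, but 0 of the 6 members. The lowest adjusted p of a member was then 0.803, against 0.996 in the printed fit. DESeq2, which tested all 10, and limma-voom also called 0 members. In 0 of the 6 did the groups lie apart without overlap, against 9.70% of all genes.

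FZD6, in miR-211 replicates 1, 2 and 3, had 43.0, 33.3 and 29.1 CPM, and in the plasmid controls of the same numbers 35.8, 40.4 and 36.1. The groups overlapped, the miR-211 libraries spanning both the highest and the lowest value, and the log2 fold change was -0.07 (SE 0.13, adjusted p 0.996, edgeR). FZD5 had 37.4, 30.1 and 28.6 CPM with miR-211 and 32.4, 35.0 and 30.7 with the control plasmid, a log2 fold change of -0.01 (SE 0.12). For both receptors pair 1 was higher with miR-211 and pairs 2 and 3 were lower, so the sign of the mean rested on single libraries. Without miR-211 replicate 1 FZD6 had -0.23 and FZD5 -0.12, and without miR-211 replicate 3 they had 0.05 and 0.07.

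FZD3, a receptor of axon guidance, had 18.1, 21.9 and 20.2 CPM with miR-211 and 20.9, 20.4 and 21.9 with the control plasmid. Its groups overlapped, with a log2 fold change of -0.04 (SE 0.12), and it was lower with miR-211 in 2 of 3 pairs. FZD7, which maintains stem cells in several tissues, had 3.95, 5.08 and 3.49 CPM against 5.78, 4.75 and 5.08. Its log2 fold change was the lowest of the 6 members tested with miR-211, -0.27 (SE 0.22). It read -0.51 in strand column 3 of the tables and -0.02 in column 4. No seed match was found in the FZD7 3 prime UTR examined, and a link between matches and values was not tested.

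The 2 members with an 8mer had log2 fold changes between those of FZD7 (-0.27) and FZD6 (-0.07). The SEs of these 2 members were too wide to tell likeness from difference to the other members. FZD4 had 5.27, 3.78 and 5.56 CPM with miR-211 and 6.42, 5.61 and 4.68 with the control plasmid, overlapping groups with a log2 fold change of -0.17 (SE 0.22). It was -0.01 without miR-211 replicate 2 and -0.29 without plasmid control replicate 3. FZD1 had 9, 12 and 3 counts with miR-211 and 6, 12 and 7 with the control plasmid, a log2 fold change of -0.13 (SE 0.51). Leaving out miR-211 replicate 2 gave -0.43, leaving out replicate 3 gave 0.29. Over all tested genes the median was -0.007 for the 1063 with an 8mer and 0.001 for the 2228 with 7-base matches only. It was 0.009 for the 7642 with no match, and the classes were not tested against each other.

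All 6 values were negative, where 51.8% of all genes tested were positive, but the members are not replicates. Leaving out miR-211 replicate 3 left 3 of 6 negative and leaving out plasmid control replicate 2 left 4. The 4 members below the filter had too few counts for a fold change. Summed counts with miR-211 and control plasmid were 9 and 3 for FZD2 (ratio of CPM 2.78, exact 95% interval 0.695 to 16.0), 19 and 15 for FZD8 (1.18, 0.566 to 2.49), 9 and 4 for FZD9 (2.09, 0.583 to 9.28) and 6 and 1 for FZD10 (5.57, 0.676 to 256.1). These intervals, which cover counting error only, all include 1. By pairs of the same number FZD2, FZD9 and FZD10 were higher with miR-211 in 3 of 3 and FZD8 in 2 of 3, on 0 to 8 counts per library.

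**Figure D3:**
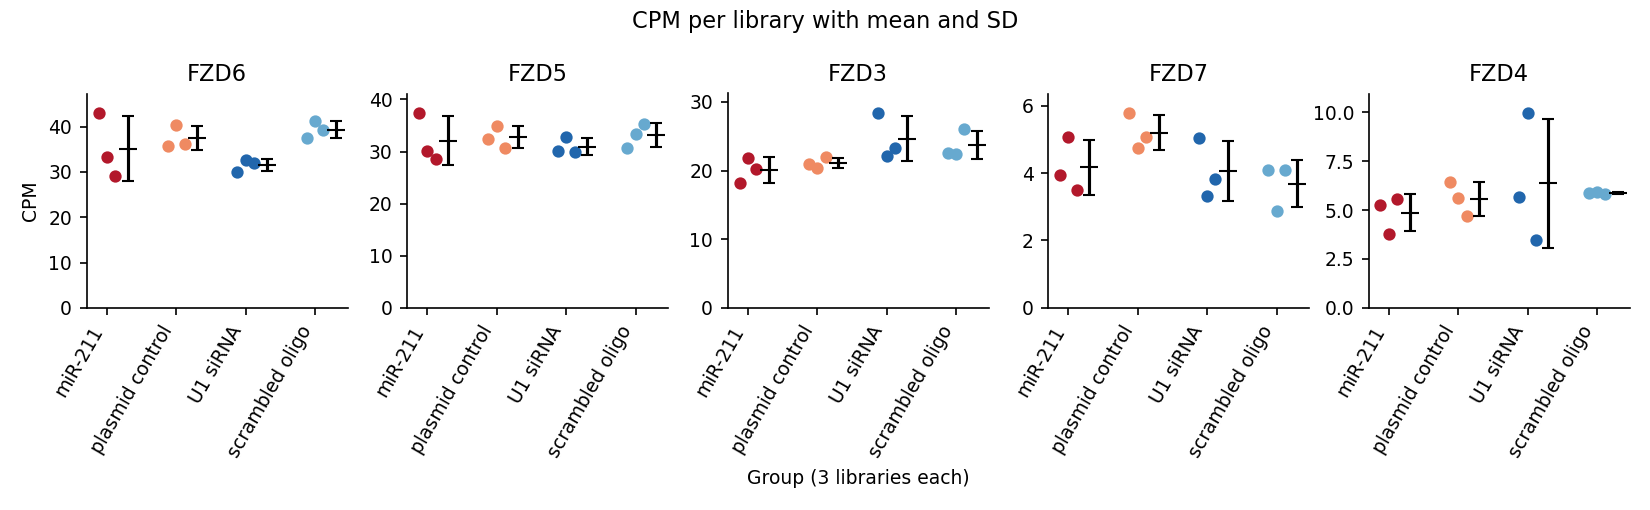
CPM of the 5 most abundant Frizzled genes in each library, by group, with mean and SD over 3 libraries; each panel has its own axis from 0. FZD6 is the panel in which the U1 siRNA libraries (30.0 to 32.6 CPM) all lie below the scrambled oligo libraries (37.5 to 41.3 CPM).

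With U1 siRNA, FZD6 had the lowest log2 fold change of the 5 members past the filter and did not pass the test. FZD6 had 30.0, 32.6 and 32.1 CPM in U1 siRNA replicates 1, 2 and 3, and 37.5, 41.3 and 39.2 CPM in the scrambled oligo libraries. The groups did not overlap, with means of 31.5 ± 1.38 and 39.3 ± 1.93 CPM (SD, n = 3 each). The log2 fold change was -0.33 (SE 0.10, edgeR), or 0.797-fold, with an adjusted p of 0.9999. Summed counts were 521 and 883, a ratio of CPM of 0.801 (exact 95% interval for counting error 0.717 to 0.894). This interval leaves out the spread between libraries and is no test of a change. The same intervals for FZD3 (0.913 to 1.185), FZD4 (0.793 to 1.36), FZD5 (0.825 to 1.04) and FZD7 (0.790 to 1.53) included 1. By signed p FZD6 ranked 3 from the lowest of 12413 genes, given as a description. It stayed between -0.36 and -0.29 when any 1 library was left out, and was -0.33 without U1 siRNA replicate 2.

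Members past the filter numbered 5 of 10 here, FZD1 having fallen below it. Of these 0 were called by edgeR, as were 0% of all 12413 genes, and 1 (FZD6) had an unadjusted p under 0.05, as had 196 of all genes. DESeq2 and limma-voom also called 0 members. FZD6 was the 1 member of 5 whose groups did not overlap, where 6.45% of all genes tested had groups apart in either direction and 2.92% were lower with U1 siRNA.

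In U1 siRNA libraries FZD5 had 30.1, 32.8 and 30.0 CPM, beside 30.7, 33.4 and 35.3 with scrambled oligo, overlapping groups with a log2 fold change of -0.11 (SE 0.10). FZD3, like FZD6 a gene of 8 exons, had 28.4, 22.1 and 23.3 CPM against 22.6, 22.4 and 26.0, with a log2 fold change of 0.05 (SE 0.14). It was -0.07 without U1 siRNA replicate 1. Without U1 siRNA replicate 2 it was 0.14. FZD7, the single-exon member that could be tested, had 5.04, 3.32 and 3.83 CPM against 4.09, 2.88 and 4.09, and a log2 fold change of 0.14 (SE 0.31) that was -0.06 without U1 siRNA replicate 1 and 0.27 without replicate 2.

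FZD4 depended on the library that stood apart. Its U1 siRNA libraries had 5.68, 9.97 and 3.48 CPM, beside 5.86, 5.93 and 5.81 with scrambled oligo. The U1 siRNA libraries lay on both sides of the controls, and the counting intervals of replicate 2 (7.27 to 13.3 CPM, 95%, exact Poisson) and replicate 3 (2.13 to 5.38) did not meet. The log2 fold change was 0.08 (SE 0.32) with all libraries and -0.33 (SE 0.26) without U1 siRNA replicate 2, which has the high share of pairs outside exons and the high fibroblast sum. Their part in the value was not tested.

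FZD4 is also the member whose counts depend most on how pairs were assigned. Its exons overlap 1399 bases of exons of PRSS23, a serine protease gene on the other strand with 8.21 ± 2.62 CPM over 12 libraries, and a pair in that stretch is counted for neither gene without strand. Over 12 libraries FZD4 had 454 counts without strand and 274 and 261 in the 2 strand columns, together 1.18 times as many, while 8 other members summed to exactly their unstranded count. The FZD4 level per kb was divided by all its exons, this stretch included, and may therefore be low. In mean level per kb FZD7 stood above FZD4 in both strand columns too. FZD6 overlaps 138 exon bases of BAALC-AS1 on the other strand, which had 32 counts in all, and its strand columns summed to 1.00 times its unstranded count. Among the U1 siRNA libraries FZD4 was in both strand columns highest in replicate 2 (10.2 and 8.58 CPM) and lowest in replicate 3 (3.22 and 3.51 CPM), but over all libraries plasmid control replicate 1 was highest in column 4 (8.73 CPM).

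Summed counts of the members below the filter were 13 and 18 for FZD1 with U1 siRNA and scrambled oligo (ratio of CPM 0.980, exact 95% interval 0.442 to 2.12), 9 and 7 for FZD2 (1.75, 0.578 to 5.51), 8 and 18 for FZD8 (0.603, 0.227 to 1.46), 2 and 2 for FZD9 (1.36, 0.0984 to 18.7) and 3 and 5 for FZD10 (0.814, 0.126 to 4.19). FZD1 and FZD8 mark the edge of the filter: with miR-211 FZD1 passed with 24 and 25 counts and FZD8 did not with 19 and 15. FZD8 also contains MIR4683, a microRNA gene of 81 bases that lies within its exon on the same strand, and FZD3 has MIR4288 on the other strand of an intron. Both microRNA genes had 0 counts in all 12 libraries, which for MIR4683 says little because a pair over both genes is assigned to neither.

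**Figure D4:**
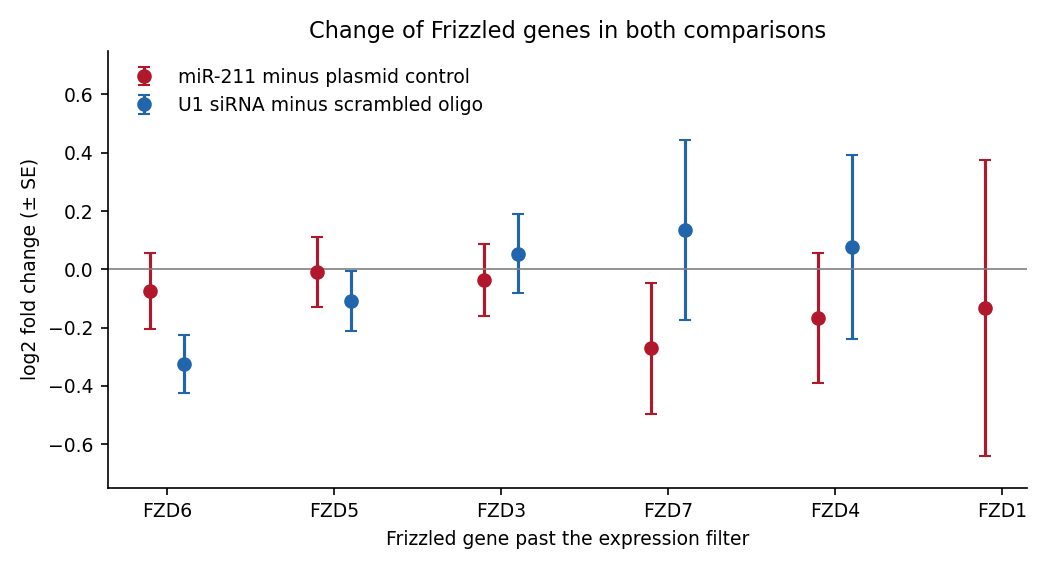
Log2 fold change of each Frizzled gene past the filter on low counts, with its SE from edgeR, for miR-211 against control plasmid and for U1 siRNA against scrambled oligo. The value farthest below 0 is FZD6 with U1 siRNA (-0.33), and the error bars widen toward FZD1, which has the fewest counts.

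The difference between both effects was tested over all 12 libraries. Of 5 members tested 0 were called, as were 0.00740% of all 13520 genes, MIR211 alone. FZD6 had a difference of 0.25 (SE 0.18, adjusted p 0.99997, edgeR) and FZD7 of -0.41 (SE 0.36), the largest in size. FZD6 was thus not shown to differ between both effects.

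The genes that act with Frizzled receptors were present unevenly. Of 20 ligand genes (19 Wnt genes and NDP, which codes for Norrin) 4 reached 1 CPM, with WNT5A (0.867 ± 0.162 CPM per kb) and WNT3 (0.626 ± 0.235) highest, against 8.82 for FZD6. Wnt secretion genes were well expressed: WLS, the carrier of Wnt proteins, had 29.9 ± 1.80 CPM per kb and PORCN, which attaches their lipid, 4.91 ± 0.627. Of 10 co-receptor genes, TSPAN12 had 6.58 ± 0.894 CPM per kb and LRP6 1.91 ± 0.185, while LRP5 had 0.413 ± 0.158. ZNRF3 had 2.50 ± 0.264 CPM per kb and RNF43, its paralogue in removing Frizzled proteins, 0.118 ± 0.0750, and of the R-spondin receptors LGR4 had 1.24 ± 0.283. SMO, the Hedgehog pathway's Frizzled relative, had 0.712 ± 0.134 CPM per kb, beside FZD4.

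**Figure D5:**
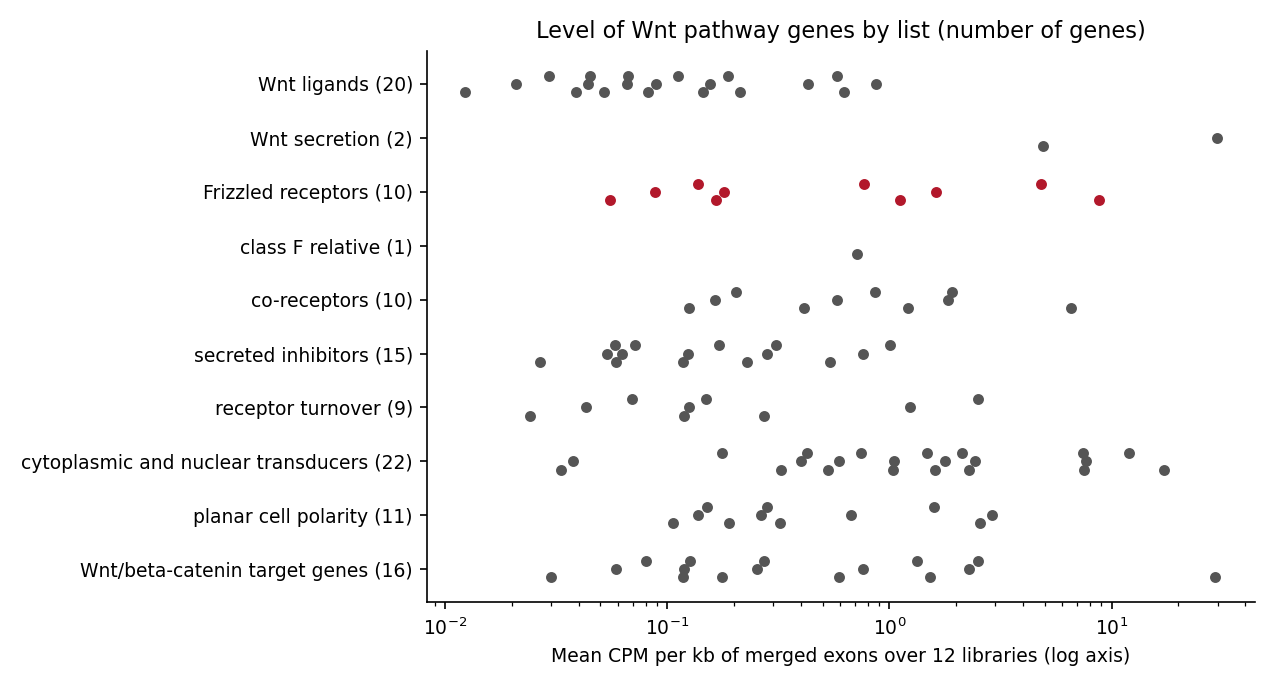
Mean CPM per kb over 12 libraries (log axis) of the genes in each Wnt pathway list, 1 point per gene, with the number of genes in brackets and Frizzled genes in red; vertical offsets only separate points, and 8 genes stand in 2 lists. Ligands reach at most 0.867 CPM per kb, below the 4 highest Frizzled genes.

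Inside the cell CSNK1A1, a kinase of the beta-catenin destruction complex, had 17.1 ± 1.15 CPM per kb and CTNNB1, beta-catenin itself, 11.9 ± 0.872. Of the planar polarity list DAAM1, a formin downstream of Dishevelled, had 2.90 ± 0.325 and INVS 2.57 ± 0.312 CPM per kb. Secreted inhibitors were low, SOSTDC1 leading with 1.00 ± 0.268 and DKK1 with 0.760 ± 0.224. Of the beta-catenin target list MYC had 29.1 ± 4.35 CPM per kb, and AXIN2, the most general target, 0.177 ± 0.0618, near the level of FZD8.

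These pathway genes did not pass the test in either comparison. With miR-211, 53 of the 98 genes outside the family passed the filter and 0 were called by edgeR in either direction, with 27 higher and 26 lower in value and a median log2 fold change of 0.003, against 0.01 over all genes. At an unadjusted p under 0.05 there were 2, or 3.77%, beside 3.29% of all genes. These were GSK3B (0.49, SE 0.18) and TCF7L2 (0.31, SE 0.14), named after their values were seen. With U1 siRNA, 51 passed the filter, 0 were called and 0 had an unadjusted p under 0.05, beside 1.58% of all genes. In value 33 were higher and 18 lower, where 54.7% of all genes were higher, and the median was 0.06, against 0.02 over all genes. Without U1 siRNA replicate 2, 52 genes passed the filter and 26 were higher and 26 lower, where 50.3% of all genes were higher. The median was then 0.002, 0 were called, and 2 had an unadjusted p under 0.05 (VANGL2 at -0.77 with SE 0.34 and CELSR1 at -1.11 with SE 0.35, named after their values were seen), as had 3.03% of all genes. Groups lay apart in 5 of 53 genes with miR-211 (PORCN, GSK3A, GSK3B, TCF7L2 and TNFRSF19) and in 3 of 51 with U1 siRNA (SOSTDC1, GSK3A and INVS), shares of 9.43% and 5.88% beside the 9.70% and 6.45% of all genes.

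For partners close to the receptor no log2 fold change passed the test. With U1 siRNA the log2 fold changes were 0.08 (SE 0.14) for LRP6, -0.14 (SE 0.40) for LRP5, -0.11 (SE 0.14) for ZNRF3, -0.19 (SE 0.21) for LGR4, 0.14 (SE 0.13) for TSPAN12 and -0.01 (SE 0.09) for CTNNB1. Without U1 siRNA replicate 2 they were 0.01 for LRP6, -0.42 for LRP5, -0.21 for ZNRF3, -0.16 for LGR4, 0.20 for TSPAN12 and 0.08 for CTNNB1. With miR-211 they were -0.11 (SE 0.12) for LRP6, -0.05 (SE 0.41) for LRP5, 0.01 (SE 0.13) for ZNRF3, -0.02 (SE 0.22) for LGR4, -0.16 (SE 0.14) for TSPAN12 and -0.13 (SE 0.08) for CTNNB1. SMO had 0.16 (SE 0.33) with U1 siRNA, 0.08 without its replicate 2, and 0.03 (SE 0.29) with miR-211. RNF43 and AXIN2 had 72 and 76 counts over the 12 libraries and were below the filter in both comparisons.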

How the data were processed

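RNA was sequenced as paired-end reads of 126 nt, per the labels. The authors deposited 1 table of raw gene counts for each library. Per the submitters' processing notes the aligner was STAR 2.7.2a and the builds GRCh37 and hg19, but all 58735 gene identifiers are those of GENCODE 29, made on GRCh38. The build of the alignment is therefore not settled, and printed coordinates are those of GENCODE 29 and RefSeq, not of the tables. The RNA selection and the strandedness of the kit are not stated. The unstranded column was used, since both strand columns had like totals, and the 4 summary lines (14.5% to 44.5% of unique pairs outside exons) were left out.

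CPM used the total over all genes, and length the merged exons. Counts were tested across all genes with edgeR 4.0.16 in R 4.3.3 (TMM, filterByExpr with its minimum count of 10, quasi-likelihood test, Benjamini-Hochberg), each comparison on its 6 libraries and the difference of both on 12. DESeq2 1.42.0 and limma 3.58.1 were alternatives, beside other scaling, no filter, strand columns, a replicate block and leaving out each library. Ratios of summed counts have exact intervals. The tests were checked on simulated data.

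Same-numbered libraries deviated together in the miR-211 comparison (r 0.247, 0.279 and 0.245 across genes, all above 0.1). Numbers were therefore read as pairs there when libraries were described, from the data and not from the labels. The printed miR-211 fits did not include the pairs, so their SEs, p-values and adjusted p do not allow for pairing. A replicate block was fitted only as an alternative. With miR-211 it gave more genes with an unadjusted p under 0.05 than the printed fit, which was thus the more cautious for all genes. With U1 siRNA r was 0.133, 0.0947 and -0.0369, so numbers were not read as pairs. No replicate pair agreed within sampling noise (chi-square over its degrees of freedom 2.15 to 7.25). P-values cover only the spread among these samples, which may be a technical one.

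The members, the 9 other Wnt lists and the rule for named genes were chosen with earlier results of these data known. The rule named all Frizzled genes, members of other lists that were called, the 2 with the highest CPM per kb in each list, LRP5, LRP6, CTNNB1, AXIN2, ZNRF3, RNF43 and SMO, the 3 genes most like FZD5 and FZD6, and MIR211. The 15 U1 genes were added afterwards as a check of the siRNA. Protein sequences were not used here.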

Additional observations from a re-analysis of the deposited data

How the results depend on the processing

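Over all genes, 1 was called with miR-211, and 2 without a filter on low counts and in strand columns 3 and 4. With U1 siRNA 0 were called, and 7 without a filter. For the difference of both effects 1 was called, 3 without a filter, 0 in strand columns 3 and 4, and 0 to 1 when a library was left out; the cause was not tested. No Frizzled gene was called under any of these settings, and no gene of the other Wnt lists with miR-211 or U1 siRNA. For the difference of both effects, the other lists were not followed through the alternatives. With the replicate numbers as a block the counts of calls were 1, 0 and 1, and FZD6 had -0.33 with U1 siRNA, so the block changed no call. FZD6 with U1 siRNA ran from -0.43 in strand column 3 to -0.24 in column 4 (adjusted p 0.979 to 0.99997 over 14 alternatives). Of the alternative values of Frizzled log2 fold changes, 238 moved by no more than the SE and 7 by more, and of the levels per kb 158 moved by no more than the SD over libraries and 2 by more; the exceptions in level were FZD5 and FZD6 in strand column 4 (4.04 and 7.70 CPM per kb). FZD6, FZD5, FZD3, FZD7 and FZD4 kept this order under each of 16 alternatives, while FZD2 and FZD8 changed places in 3. Most of these alternatives only left out 1 library. The only alternative length, the longest transcript, was close to the merged exons (13740 against 13787 bases for FZD3, 3788 against 4065 for FZD6). Whether the order would hold with shorter 3 prime UTRs was therefore not tested. Depth limits the 5 least abundant members, for which changes under about the width of the printed intervals could not be detected.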
